A study of Mus musculus with 4 samples.

Results

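Zinc finger genes that lie next to each other on mouse chromosomes were examined for acetylation of histone H3 at lysine 9 (H3K9ac) and at lysine 14 (H3K14ac) in mouse embryonic stem (mES) cells. Members were the protein-coding genes of chromosomes 1 to 19 in the GENCODE annotation of the mm9 genome that are named Zfp followed by a number and that have another such transcription start site (TSS) within 200 kb, except Zfp42, a marker of ES cells. This rule, which uses names and positions and no measured value, gave 203 gene records of the 336 Zfp genes and of the 21418 autosomal protein-coding genes. They carry 199 symbols, because Zfp319, Zfp664, Zfp708 and Zfp738 have 2 records each. All 4 libraries came from mES cells that the labels call line E14, of strain 129P2/OlaHsd, at passage 25 to 30 and without treatment, whereas the methods describe ES cells that were derived from blastocysts, kept on feeder cells and then passaged on gelatin to remove the feeders. Chromatin was immunoprecipitated with the rabbit polyclonal antibody ab4441 against H3K9ac, the mouse monoclonal antibody 13HH3 against H3K14ac or another mouse monoclonal antibody against H3K14ac, 7G8, and input DNA served as the control. With 1 library for each antibody, replicates are lacking, no difference was tested, and every interval below covers counting error only. The values are tag counts, where a tag is the position of a mapped read of 36 bases.

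Most Zfp genes encode proteins with a row of C2H2 zinc fingers, in which cysteines and histidines hold a zinc ion and each finger contacts a few bases of DNA. Many of the clustered members also carry a KRAB domain at the N terminus, which binds TRIM28 (KAP1), a scaffold for the H3K9 methyltransferase SETDB1, and such proteins are known for the silencing of endogenous retroviruses in ES cells. The genes arose by repeated duplication, and the exon that encodes the fingers, usually the last, is known to carry H3K9 trimethylation in many cell types, a mark placed on the lysine that H3K9ac occupies.

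The members form 51 groups of neighbours, in which each TSS lies within 200 kb of the next. Of these clusters 17 hold 4 or more members and together 128 of the 203, and 27 hold 2. Chromosome 7 carries 73 members, chromosome 17 carries 29 and chromosome 13 carries 25. The median gene length was 13626 bp. A C2H2 match was found in the protein of 198 members, and in 190 of them every finger lies in the last coding exon. The median number of fingers was 11, with the highest number, 33, in Zfp619. Around the TSS (1 kb) the median GC content was 52.1% and the median ratio of observed to expected CpG was 0.55, beside 55.0% and 0.56 over all 21082 autosomal protein-coding genes that are not Zfp genes.

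The 200 bases just upstream of a start are shown for 3 members described below, read from mm9. Capitals mark the dinucleotide CG, which is its own complement and so is the same on each strand. Among members 95.6% have at least 1 CG in this stretch, with a median of 7, beside 90.5% and a median of 7 over all 21418 genes. The number of CG did not follow H3K9ac in every member, as Zfp27, with the highest H3K9ac, has 0 CG there. Zfp568 had the second highest H3K9ac of the members and is shown as a start with both marks. Its stretch is chr7:30768774-30768973 on the plus strand and holds 22 CG.
Zfp568: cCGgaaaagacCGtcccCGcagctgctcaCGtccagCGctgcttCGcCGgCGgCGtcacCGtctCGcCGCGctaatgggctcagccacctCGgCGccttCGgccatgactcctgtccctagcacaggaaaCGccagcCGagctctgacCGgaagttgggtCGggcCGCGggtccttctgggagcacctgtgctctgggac
Zfp445 and Zfp775 had no mark at the start of their gene records and H3K9ac at another start, so both starts are shown. The record of Zfp445 (chr9:122771247-122771446, minus strand) is preceded by 2 CG, and its RefSeq start (chr9:122775125-122775324, minus strand) by 5.
Zfp445 before the record: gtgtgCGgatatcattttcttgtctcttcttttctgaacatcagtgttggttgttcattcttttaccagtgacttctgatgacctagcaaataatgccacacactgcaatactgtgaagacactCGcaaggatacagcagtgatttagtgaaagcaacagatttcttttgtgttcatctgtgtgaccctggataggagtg
Zfp445 before the RefSeq start: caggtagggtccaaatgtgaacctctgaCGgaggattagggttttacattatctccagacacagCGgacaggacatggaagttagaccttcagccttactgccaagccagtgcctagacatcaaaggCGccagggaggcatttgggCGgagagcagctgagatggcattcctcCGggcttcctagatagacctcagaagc
For Zfp775 the record (chr6:48562979-48563178, plus strand) is preceded by 1 CG and the RefSeq start (chr6:48551806-48552005, plus strand) by 15.
Zfp775 before the record: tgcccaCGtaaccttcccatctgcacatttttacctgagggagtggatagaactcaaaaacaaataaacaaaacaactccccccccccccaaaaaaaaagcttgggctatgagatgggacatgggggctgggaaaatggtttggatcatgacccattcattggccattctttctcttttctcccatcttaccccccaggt
Zfp775 before the RefSeq start: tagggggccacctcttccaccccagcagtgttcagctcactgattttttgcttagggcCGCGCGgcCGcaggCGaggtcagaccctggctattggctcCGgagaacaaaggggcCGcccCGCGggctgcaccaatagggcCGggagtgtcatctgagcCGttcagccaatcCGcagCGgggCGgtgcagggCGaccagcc

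The fingers themselves are repeats of 84 bases, and their part in how well reads of 36 bases can be placed was not tested. One finger each is shown for 4 of the members that are named below for high H3K14ac values at the gene end, with the codons of the cysteines and histidines in capitals. They lie at chr13:67618612-67618695 (Zfp87, minus strand), chr6:48014152-48014235 (Zfp746, minus strand), chr8:74413306-74413389 (Zfp709, plus strand) and chr6:47770571-47770654 (Zfp786, minus strand).
Zfp87: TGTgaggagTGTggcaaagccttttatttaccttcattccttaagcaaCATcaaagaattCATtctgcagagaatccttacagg
Zfp746: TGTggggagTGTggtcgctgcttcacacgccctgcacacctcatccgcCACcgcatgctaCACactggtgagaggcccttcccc
Zfp709: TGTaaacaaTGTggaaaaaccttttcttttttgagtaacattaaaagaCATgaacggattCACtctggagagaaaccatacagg
Zfp786: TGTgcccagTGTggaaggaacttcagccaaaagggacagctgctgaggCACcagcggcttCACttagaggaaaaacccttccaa
The 6 pairs of these fingers share between 37 and 57 of the 84 bases. Among the members, 33 had fewer than 80% unique 36-base starts in the TSS window and 30 in the gene-end window. The median share of unique starts was 95.1% at the TSS and 97.2% at the gene end, beside 96.95% and 98.7% over all genes. Zfp97 is the extreme, with 0.75% at the TSS and with 0 H3K9ac, 1 13HH3, 1 7G8 and 0 input tags, so nothing can be read from that start.

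The 4 libraries held 23183487 tags (H3K9ac), 22365676 tags (13HH3), 23839094 tags (7G8) and 19313927 tags (input). In the 13HH3 library 3.30% of the tags repeat a position and strand and were removed, while the others held no repeats. Among ES cell markers, H3K9ac over input was at least 1.5-fold at 4 of 5 starts (Pou5f1, Nanog, Sox2 and Tdgf1, and not Esrrb). It was so at 1 of 5 genes of other tissues. At 5 genes of fibroblasts, the cell type of feeders, log2 values ran from -0.30 to 1.10 and 4 of 5 passed, and their part in the values of the Zfp genes was not tested. Tags over input also differed between whole chromosomes, with a ratio of H3K9ac to input of 0.82 on chromosome 17, 1.12 on chromosome 7 and 1.08 on chromosome 13.

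Around the TSS, the clustered Zfp genes were called for H3K9ac at most starts, while calls for H3K14ac were fewer and depended on the antibody. Tags were counted within 2 kb on each side of the TSS, expressed per 10000000 tags of the library, and given as log2 over input with 1 added to each side. A gene is called acetylated when this ratio was at least 1.5-fold. The median member had 143 H3K9ac tags, 49 13HH3 tags and 62 7G8 tags against 32 input tags. H3K9ac was called at 177 of 203 members (87.2%), beside 64.4% of all autosomal protein-coding genes. The median log2 of the members was 1.84, with quartiles of 1.29 and 2.35, and that of all non-Zfp genes was 1.21. The exact 95% interval lay above 0 at 176 members and below 0 at none.

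For H3K14ac, 13HH3 was called at 71 members (35.0%), which is close to the 33.9% of all genes. Its median log2 was 0.37 over the members and 0.33 over the non-Zfp genes. 7G8 was called at 98 members (48.3%), beside 34.3% of all genes, with medians of 0.57 and 0.32. The antibodies against H3K14ac thus placed the members differently against the other genes. With a 2-fold threshold 24 members were called for 13HH3 (11.8%, beside 14.7% of all genes) and 42 for 7G8 (20.7%, beside 15.1%). The log2 ratio of 13HH3 to H3K9ac was above 0 at 6 members and at 4683 of all 21418 genes, and that of 7G8 to H3K9ac at 4 members and at 4606 genes. The median log2 ratio of 13HH3 to H3K9ac was -1.40 in the members and -0.85 in the non-Zfp genes, and that of 7G8 to H3K9ac was -1.28 and -1.0. In the 133 Zfp genes without another within 200 kb these medians were -1.30 and -1.34, so low ratios were not particular to the members. Signal differs between antibodies, so these ratios are compared between gene groups and do not give the amount of a mark.

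**Figure D1:**
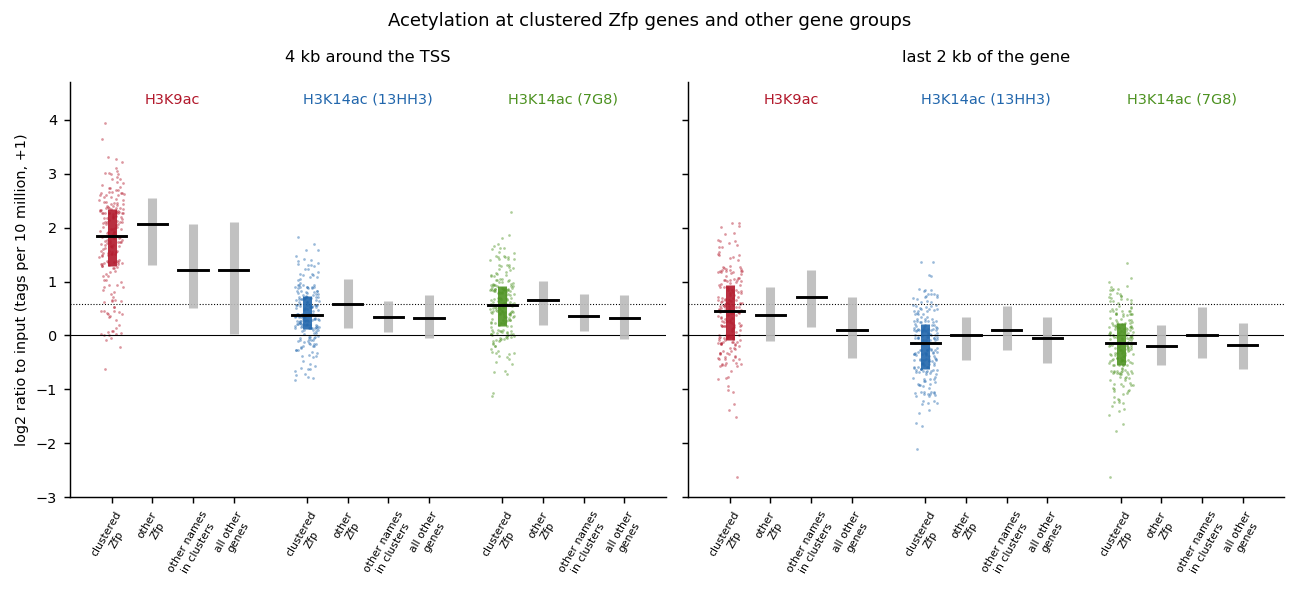
Log2 over input of H3K9ac, 13HH3 and 7G8 in the TSS window and the gene-end window, for the clustered Zfp genes (coloured, with 1 point per gene), the other Zfp genes, the genes of other names inside the clusters and all other autosomal protein-coding genes. Thick bars span the quartiles, black lines are medians and the dotted line is the 1.5-fold threshold. The member median for H3K9ac stands at 1.84 at the TSS and 0.45 at the gene end, while the medians of 13HH3 and 7G8 at the gene end are -0.14 and -0.15.

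The 133 Zfp genes without such a neighbour had a median log2 of 2.06 for H3K9ac, 0.59 for 13HH3 and 0.65 for 7G8 at the TSS. H3K9ac was called at 111 of them and 13HH3 at 67. Their 13HH3 share (50.4%) stood above that of the clustered members (35.0%), whereas for H3K9ac the shares were 83.5% and 87.2%. The unclustered genes also had a higher CpG ratio (median 0.67). The 98 genes of other names that lie inside the clusters had a median log2 of 1.22 for H3K9ac, 0.35 for 13HH3 and 0.37 for 7G8, which is near the values of all non-Zfp genes. Their CpG ratio was lower (median 0.37). None of these differences between groups was tested, as members share the same libraries.

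In single members the calls combined as follows. All 3 antibodies called 61 members (30.0%, beside 23.9% of all genes). H3K9ac was called with neither H3K14ac antibody at 69 (34.0%, beside 24.9%), with 7G8 and without 13HH3 at 37 (18.2%, beside 7.69%), and with 13HH3 and without 7G8 at 10 (4.93%, beside 7.85%). Each of these patterns needs an H3K9ac call, which 177 members and 13799 of all genes had. Of these, all 3 antibodies called 61 members and 5128 genes, and H3K9ac alone was called at 69 and 5342. The pattern with 7G8 and without 13HH3 had 37 and 1647, and the reverse had 10 and 1682. The higher shares for all 3 antibodies and for H3K9ac alone are thus not read apart from the H3K9ac calls. H3K14ac without H3K9ac could be seen only at the 26 members without an H3K9ac call, and was seen at none of them. Over all genes it was seen at 879 of the 7619 without an H3K9ac call, which is 4.10% of all genes. With only 26 such members, their 0 is not read as a difference. These 26 members (12.8%) thus had no call, beside 31.5% of all genes. Across the 203 members the TSS values of H3K9ac followed those of 7G8 with a Spearman rho of 0.87 and those of 13HH3 with 0.72. In the non-Zfp genes these were 0.76 and 0.73. All ratios share the input library, and neighbouring members share base composition, so these correlations are descriptions.

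The average profile had a peak on each side of the start. H3K9ac summed over the members had a maximum of 6.98 times the scaled input on the upstream side, at 250 bp, and of 6.26 times on the downstream side, at 350 bp. Between them it dropped to 3.63 times in the 100 bp just before the TSS. For 13HH3 the maxima were 1.69 on the upstream side and 1.84 on the other, the latter at 750 bp. Those of 7G8 were 2.52 and 2.31 at the same distances. The non-Zfp genes had maxima of 4.32 and 4.43 for H3K9ac, 1.51 and 1.99 for 13HH3 and 1.68 and 1.55 for 7G8. The member maxima were thus above theirs for H3K9ac and 7G8 on each side, and for 13HH3 on the upstream side but not on the other. The unclustered Zfp genes had 6.61 and 7.09 for H3K9ac, 2.46 and 2.88 for 13HH3 and 2.62 and 2.27 for 7G8. The members were above these only for H3K9ac upstream and 7G8 downstream. The member profile rests on few tags per step, and its maxima are the highest of many noisy steps.

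**Figure D2:**
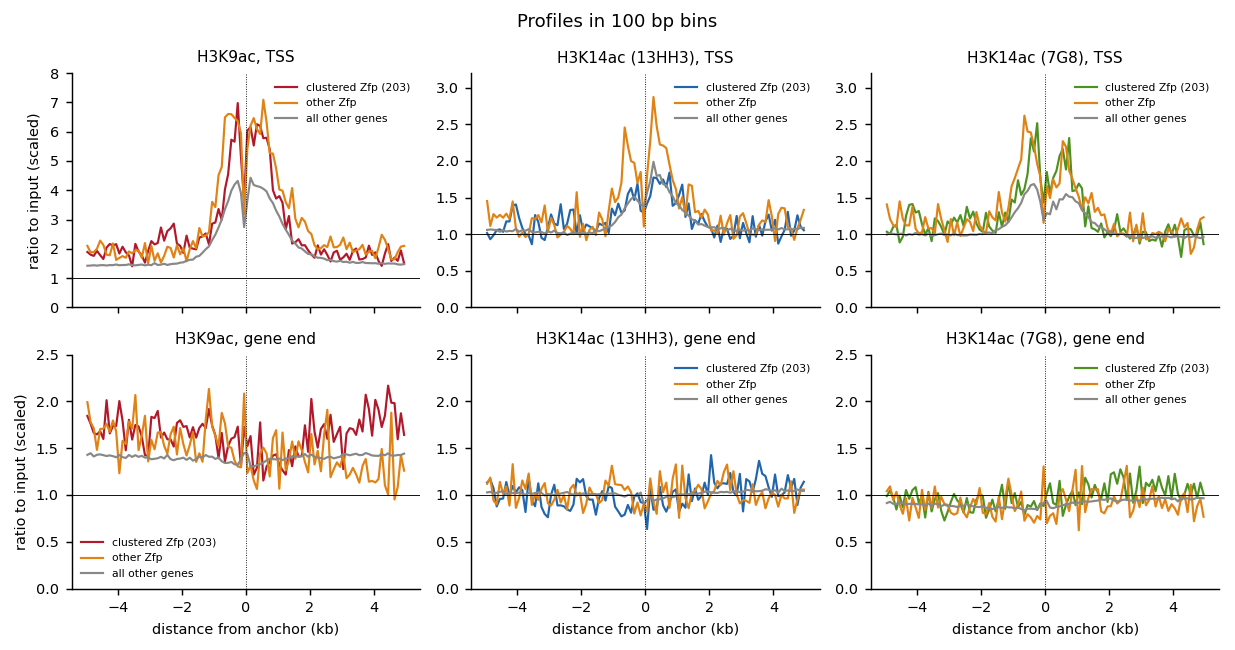
Ratio of summed tags to scaled input tags in 100 bp steps within 5 kb of the TSS and of the gene end, for the 3 antibodies, with a line for each of the clustered Zfp genes, the unclustered Zfp genes and all other genes. At the TSS the member line for H3K9ac peaks at 6.98 upstream and 6.26 downstream of a dip, and no such peak is seen at the gene end, where the highest member value for H3K9ac is 2.17.

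The highest H3K9ac at the TSS was found at Zfp27, with 218 H3K9ac, 33 13HH3, 70 7G8 and 10 input tags. The log2 over input was 3.94 for H3K9ac (exact 95% interval 3.28 to 5.26), 1.40 for 13HH3 and 2.30 for 7G8. With 10 input tags its H3K9ac interval is the widest of the 8 highest members, and its start lies inside the record of Zfp420. Zfp568, which represses a placental promoter of Igf2, followed with 431, 113, 128 and 27 tags in the same order. Its log2 values were 3.64 (3.17 to 4.35), 1.83 (1.29 to 2.57) and 1.87 (1.33 to 2.60), and it was the highest member for 13HH3. All 3 intervals exclude 0.

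Zfp961 had 331, 92, 81 and 26 tags, and log2 values of 3.31, 1.59 and 1.27. Zfp553 had 368, 114, 92 and 30 tags, and log2 values of 3.27, 1.70 and 1.26. In both genes 13HH3 exceeded 7G8. Zfp524 (267, 55, 77 and 22 tags), Zfp13 (420, 83, 144 and 39) and Zfp646 (377, 62, 105 and 37) had H3K9ac log2 values of 3.23, 3.10 and 3.02. Each of these 3 has another protein-coding start within its window. That was so for 19 members, all of which were called for H3K9ac (median 2.65), beside 91.1% of the non-Zfp genes with a second start. The 184 members without one had a median of 1.75 and 158 calls (85.9%), beside 59.6% of such non-Zfp genes.

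Members with a described function had the following values at their record starts. Zfp809, which brings TRIM28 to proviral DNA in ES cells, had 304 H3K9ac, 88 13HH3, 80 7G8 and 29 input tags at its start. Its log2 values were 3.04 (2.57 to 3.73), 1.38 (0.82 to 2.10) and 1.11 (0.53 to 1.83), among the 8 highest for H3K9ac. Zfp110, which encodes a protein that binds the neurotrophin receptor p75, had 315, 78, 109 and 31 tags, with log2 values of 3.00, 1.12 and 1.45. Zfp263 had 310, 69, 101 and 37 tags, with log2 values of 2.74, 0.71 and 1.11. Zfp819, whose product is known to silence repeats in pluripotent cells, stood near the median for H3K9ac with 161, 67, 92 and 36 tags. Its log2 values were 1.84 (1.37 to 2.46), 0.70 (0.13 to 1.36) and 1.01 (0.48 to 1.65). Zfp445, which binds imprinting control regions, was the lowest of the members with 10 or more input tags. It had 31, 25, 22 and 41 tags, and log2 values of -0.63 (-1.39 to 0.04), -0.82 (-1.66 to -0.12) and -1.12 (-2.02 to -0.42). At its RefSeq start, described below, H3K9ac was 2.34 and all 3 antibodies were called, so its low values hold for the record start alone.

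The genes through which KRAB zinc finger proteins act were measured at their own starts as well. Of 17 records of 16 corepressor genes, 14 were called for H3K9ac, 11 for 13HH3 and 9 for 7G8, beside 64.4%, 33.9% and 34.3% of all genes, and the median H3K9ac log2 was 2.73. Trim28, the scaffold itself, had 434, 111, 116 and 23 tags, with log2 values of 3.87, 2.02 and 1.94. The genes of the heterochromatin proteins were also high, with 4.42 at Cbx5 and 4.18 at Cbx3. Setdb1 was lower, with 69, 21, 32 and 23 tags and a log2 of 1.25 for H3K9ac, and neither H3K14ac antibody was called there. The uncalled records were Dnmt3a (0.18) and the 2 records of Atf7ip.

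CpG content went with the level of H3K9ac, though less in the members than elsewhere. Across the members, the CpG ratio and H3K9ac had a Spearman rho of 0.56, against 0.75 in the non-Zfp genes, and the rho with either H3K14ac antibody was 0.40. Of the 90 members with a CpG ratio of at least 0.6, 88 were called for H3K9ac (97.8%, beside 95.6% of all genes of this class), and their median of 2.26 was close to the 2.06 of non-Zfp genes of the same class. Between 0.4 and 0.6, 48 of 51 members were called (94.1%, beside 75.2% of all genes), with a median of 1.78 beside 1.19 in the non-Zfp genes. Below 0.4, 41 of 62 members were called (66.1%), with a median of 1.05, whereas 23.6% of the non-Zfp genes of this class were called, with a median of -0.06. The difference from the non-Zfp genes was thus largest in the class below 0.4. CpG content was not matched within this class. The lower quartile of the CpG ratio was 0.36 over all members and 0.23 over the non-Zfp genes. The classes use record starts and were not counted at RefSeq starts. The unclustered Zfp genes also lay above the non-Zfp genes, with 17 of 18 called between 0.4 and 0.6 (median 2.21) and 12 of 31 below 0.4 (median 0.42). For the H3K14ac antibodies the members below 0.4 were called at 12 starts (13HH3, 19.4%) and 14 starts (7G8, 22.6%), beside 15.3% and 15.5% of all genes of this class. Only 6 of the 62 have a stretch of 1 kb with a ratio of 0.6 or more elsewhere in the window.

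**Figure D3:**
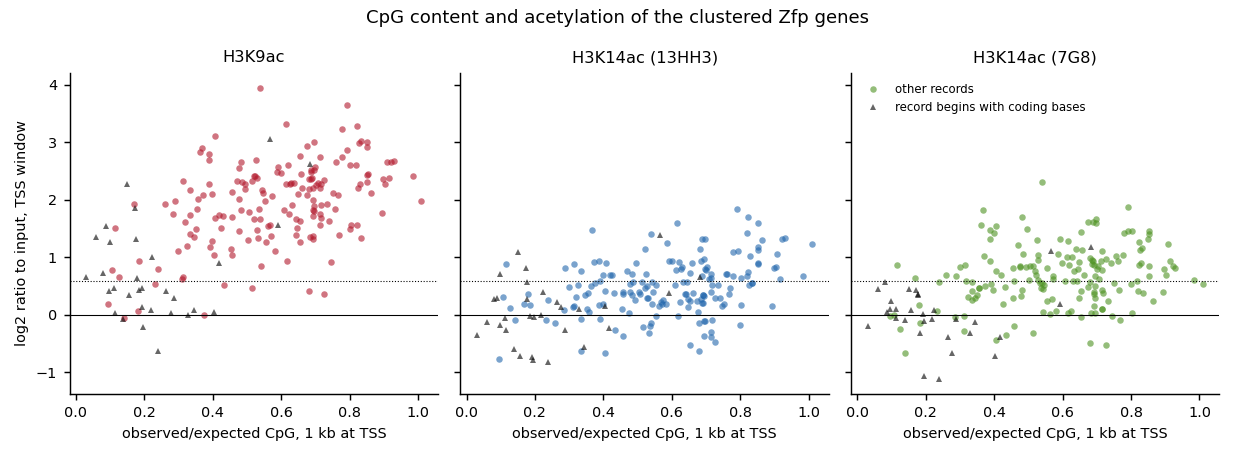
Log2 over input of the 3 antibodies in the TSS window of the clustered Zfp genes against the ratio of observed to expected CpG in 1 kb around the TSS, with 1 point per gene and triangles for records that begin with coding bases. H3K9ac rises from a median of 1.05 below a CpG ratio of 0.4 to 2.26 at 0.6 and above, and most of the 31 triangles lie at low CpG and low values.

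Records that begin with coding sequence were more frequent among the 26 members without a call at the start than among the called members. Of the 26, 21 have a CpG ratio below 0.4, and Zfp334 and Zfp9 have one of 0.6 or more. The window held 10 or more input tags in 23 of them, and 8 have fewer than 80% unique starts. The part of coverage in the missing calls was not tested. The gene record begins directly with coding sequence in 17 of the 26 (65.4%) and in 14 of the 177 called members (7.91%). In the non-Zfp genes the shares were 25.2% and 3.82%. The bases AG, the last bases of most introns, stand just before the record in 9 of the 26 (34.6%) and in 5 of the 177 (2.82%), against 7.94% and 4.17% in the non-Zfp genes. Over the 31 members that begin with coding sequence the median H3K9ac log2 was 0.45, against 2.00 over the others.

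Starts from a later annotation were therefore placed on mm9. RefSeq gives for each gene of the next build, GRCm38.p6, a sequence of 300 bases that runs to 50 bases past the start, and this was found unchanged in 1 copy within 500 kb of the gene for 170 of the 203 members. For 141 of these the RefSeq start lies within 2 kb of the record start, and the median H3K9ac log2 was 2.06 at the record and 2.01 at the RefSeq start. For the other 29 the starts lie a median of 8901 bp apart. There the median was 0.46 at the record, with 13 called, and 2.17 at the RefSeq start, with 28 called (96.6%). Of all 974 genes whose start moved by over 2 kb, 445 were called at the record and 549 (56.4%) at the RefSeq start. Of the 14 unclustered Zfp genes among them, 6 were called at the record and 12 (85.7%) at the RefSeq start. At the RefSeq starts of all 170 matched members, 164 were called for H3K9ac (96.5%), 73 for 13HH3 (42.9%) and 96 for 7G8 (56.5%), beside 67.8%, 35.7% and 36.5% of all matched genes. Of the 98 matched unclustered Zfp genes, 89 (90.8%), 52 (53.1%) and 60 (61.2%) were called. With the record start kept for the unmatched members, 191 of 203 were called for H3K9ac (94.1%), 83 for 13HH3 (40.9%) and 108 for 7G8 (53.2%), beside 64.9%, 34.5% and 34.7% of all genes by the same rule.

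Of the 26 members without a call, 20 had a RefSeq match. In 16 the RefSeq start lies more than 2 kb away, upstream in 14 and downstream in 2. H3K9ac was called there in 15 of the 16, 13HH3 in 5 and 7G8 in 6. Of all 529 genes that were not called at the record start and whose start moved by over 2 kb, 40.5% were called for H3K9ac at the RefSeq start, 21.6% for 13HH3 and 20.2% for 7G8. Zfp319, Zfp708 and Zfp738 enter these 16 with the record that lacks a call, and the RefSeq start found for them belongs to the symbol as a whole. In 14 of the 16 no other protein-coding record starts in the RefSeq window, and 13 of these 14 were called. The 4 members whose RefSeq start lies within 2 kb (Zfp334, Zfp454, Zfp772 and Zfp879) stayed uncalled. Because this set was chosen for low values at the record start, a higher value elsewhere is a description and not a test.

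At Zfp445 the RefSeq start lies 3878 bp upstream of the record and had 131 H3K9ac, 60 13HH3, 72 7G8 and 20 input tags. Its log2 values were 2.34 (1.76 to 3.21), 1.34 and 1.46, whereas all 3 were negative at the record. The stretch before this start, printed above, holds 5 CG. At Zfp775 the record had 52, 47, 34 and 45 tags and an H3K9ac log2 of -0.05 (-0.66 to 0.55). The RefSeq start 11173 bp upstream, after the stretch with 15 CG, had 120, 38, 52 and 36 tags and log2 values of 1.43 (0.93 to 2.05), -0.08 and 0.22, so H3K9ac was present there without a call for H3K14ac. Zfp869 had 42, 42, 34 and 35 tags at the record and 116, 57, 64 and 14 tags at a start 6178 bp upstream, where all 3 log2 values were above 1 (2.63, 1.73 and 1.76). Zfp850 had the highest value of these, with 295, 66, 113 and 29 tags at a start 28319 bp upstream and a log2 of 3.00 for H3K9ac, against 0.19 at the record. Zfp872 was the exception. It had 67, 43, 34 and 42 tags at a start 8901 bp upstream, and an H3K9ac log2 of 0.39 (-0.17 to 1.00), although 14 CG precede this start.

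**Figure D4:**
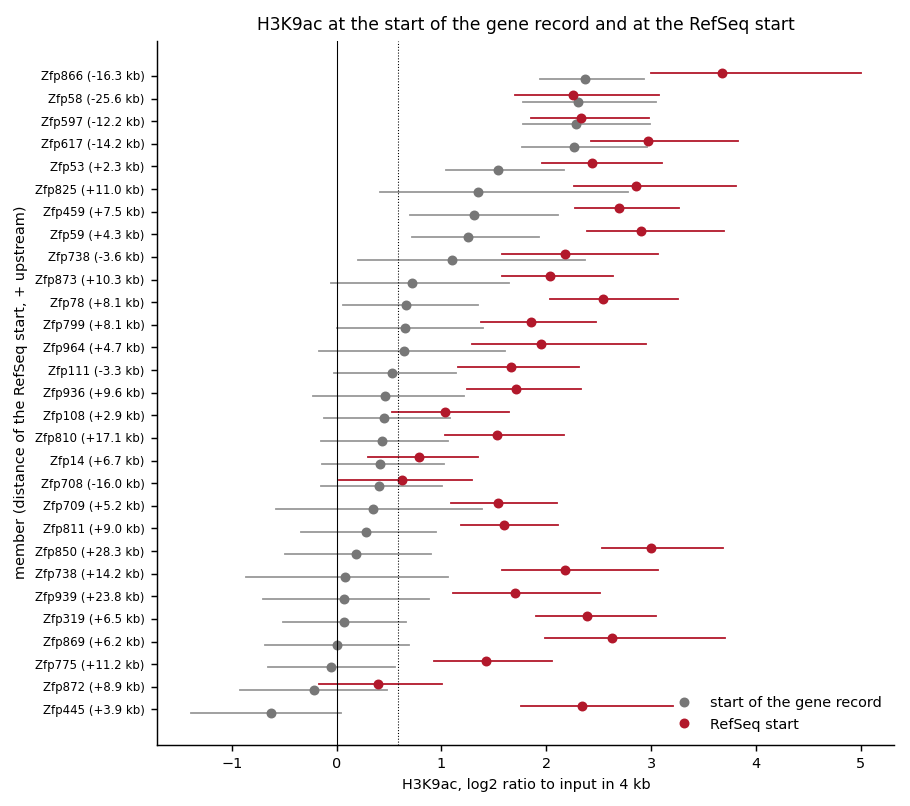
Log2 over input of H3K9ac in the window at the start of the gene record (grey) and at the RefSeq start (red) for the 29 members whose starts differ by more than 2 kb, with exact 95% intervals as bars and the distance beside each name (plus for upstream). The red point of 28 members lies at or beyond the dotted 1.5-fold threshold, as for Zfp445 (-0.63 at the record and 2.34 at the RefSeq start), and that of Zfp872 (0.39) does not.

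At the gene end, H3K9ac stayed above input at many members while H3K14ac did not. The window was the last 2 kb of the gene record. The median member had 27 H3K9ac, 16 13HH3, 18 7G8 and 17 input tags there, so single values are less precise than at the TSS, and 29 members had fewer than 10 input tags. H3K9ac was called at 84 members (41.4%), beside 29.6% of all genes, and its log2 was at least 1.5-fold below input at 11 (5.42%, beside 18.8%). Its interval lay above 0 at 53 members and below 0 at 7. 13HH3 was called at 20 members (9.85%, beside 15.0% of all genes) and was as far below input at 52 (25.6%, beside 20.9%). 7G8 was called at 23 (11.3%, beside 12%) and was as far below input at 50 (24.6%, beside 26.6%). Among the 174 members with 10 or more input tags 13 were called for 7G8 (7.47%, beside 8.92% of all such genes). With a pseudocount of 5, H3K9ac was called at 60 members (29.6%, beside 22.7% of all genes). The calls were then 13 for 13HH3 (6.40%, beside 8.94%) and 9 for 7G8 (4.43%, beside 5.94%). The counts below input then fell to 29 for 13HH3 (14.3%, beside 10.8%) and 22 for 7G8 (10.8%, beside 16.5%). Scaling of each chromosome by its own median bin was an alternative added after the data were seen. With it, H3K9ac was called at 120 members (59.1%, beside 42.3% of all genes). 13HH3 was then called at 26 members (12.8%, beside 17.6%) and was below input at 42 (20.7%, beside 17.8%).

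The median log2 of the members at the gene end was 0.45 for H3K9ac, -0.14 for 13HH3 and -0.15 for 7G8, beside 0.09, -0.06 and -0.17 in the non-Zfp genes. The ratio of 13HH3 to H3K9ac had a median log2 of -0.64 in the members and -0.21 in the non-Zfp genes, and that of 7G8 to H3K9ac -0.61 and -0.38. The unclustered Zfp genes had 0.38, 0.00 and -0.20 for the 3 antibodies, and ratios to H3K9ac of -0.58 (13HH3) and -0.64 (7G8), near those of the members. The genes of other names inside the clusters had 0.72, 0.10 and 0.01, above the members for every antibody. H3K9ac was called at both the TSS and the gene end in 77 members (37.9%, beside 25.7% of all genes). All 3 antibodies were called at the gene end in 7 members (3.45%, beside 5.85%). The TSS and gene-end values of H3K9ac had a Spearman rho of 0.25 over the members and 0.46 over the non-Zfp genes.

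The last 2 kb are only in part the finger exon. At least 50% of the finger bases fall into this window in 122 members, and none in 54. Over all members the record goes on beyond the stop codon by a median of 947 bp. The 122 members had medians of 0.45 for H3K9ac, -0.27 for 13HH3 and -0.20 for 7G8, and the 54 had 0.42, -0.04 and -0.08. 13HH3 was called at 12 of the 122 (9.84%) and at 3 of the 54 (5.56%), so its calls and its medians differed in opposite directions. In the 2 kb that end at the stop codon, which hold at least 50% of the finger bases in 194 members, the medians were 0.46, -0.26 and -0.21, and 91 (44.8%), 30 (14.8%) and 19 (9.36%) members were called, beside 30.2%, 16.3% and 11.9% of all genes. The number of fingers had a Spearman rho of -0.02 with H3K9ac, -0.02 with 13HH3 and 0.05 with 7G8 at the gene end. The share of unique starts had a rho of 0.57 with the input tags there and of 0.06 with the log2 of 13HH3.

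Among members with 10 or more input tags at the gene end, Zfp87 had the highest 13HH3, with 38 H3K9ac, 32 13HH3, 17 7G8 and 10 input tags. Its log2 values were 1.49 (0.63 to 2.83), 1.35 (0.45 to 2.70) and 0.40 (-0.75 to 1.75), so the interval for 7G8 includes 0. Zfp746 had 100, 61, 49 and 24 tags, and log2 values of 1.72 (1.14 to 2.50), 1.12 (0.48 to 1.93) and 0.68 (-0.01 to 1.5). Zfp398 had 54, 53, 39 and 21 tags, and its 13HH3 value of 1.10 (0.42 to 1.98) was as high as its H3K9ac value of 1.03 (0.35 to 1.90). Zfp580, Zfp866 and Zfp524 followed with 13HH3 values of 0.87, 0.85 and 0.85. The genes of Zfp580 and Zfp524 are shorter than 4 kb, and their windows overlap the TSS window.

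For 7G8 the highest were Zfp111 and Zfp709. Zfp111 had 45, 21, 32 and 12 tags at its end, with log2 values of 1.5 (0.70 to 2.70), 0.57 and 1.00 (0.12 to 2.20), while its record start had no call. The RefSeq start of Zfp111, further downstream, had 130, 52, 65 and 33 tags. H3K9ac (1.66) and 7G8 (0.64) were called there, and 13HH3 (0.47) was not. Zfp709 had 27, 6, 35 and 14 tags, with log2 values of 0.62 (-0.30 to 1.73), -1.13 (-3.05 to 0.08) and 0.93 (0.09 to 2.03), so the H3K14ac antibodies lay on opposite sides of input. Its gene is shorter than 4 kb. Zfp786 had 147, 50, 83 and 35 tags, with log2 values of 1.75 (1.27 to 2.38), 0.34 and 0.91 (0.36 to 1.56). Zfp773, Zfp30 and Zfp568 followed with 7G8 values of 0.87, 0.78 and 0.77. Zfp647 had more H3K9ac at the end of its record than at the start. Its record begins with coding bases just after AG, and no RefSeq start was matched, so no other start was measured. Its record start had 73, 74, 46 and 60 tags, an H3K9ac log2 of 0.02, and its end had 171, 75, 83 and 41 tags, a log2 of 1.75 (1.30 to 2.33).

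The ratio of 13HH3 to H3K9ac at the TSS was highest at record starts with little of either mark. Ranking by a ratio to H3K9ac favours starts with low H3K9ac. The 6 highest were Zfp319 (the record without a call), Zfp872, Zfp647, Zfp869, Zfp772 and Zfp775, and all 6 are among the members with no call. At Zfp319 this record had 58, 67, 64 and 46 tags, with log2 values of 0.07 (-0.51 to 0.66), 0.37 (-0.18 to 0.95) and 0.17 (-0.40 to 0.75), and each interval includes 0. Its other record had 200, 76, 66 and 29 tags, with log2 values of 2.45 (1.96 to 3.14), 1.17 and 0.84. At RefSeq starts H3K9ac was called for Zfp319 (2.38), Zfp869 (2.63) and Zfp775 (1.43). It was not called there for Zfp872 (0.39) and Zfp772 (0.19), and Zfp647 had no match. None of the 26 members without an H3K9ac call had H3K14ac called at the TSS, and they are too few for a comparison with other genes.

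Most clusters as a whole, with the starts of their members included, were richer in H3K9ac than their chromosomes. Over the full span of each of the 17 clusters with 4 or more members, the log2 of H3K9ac over input ran from 0.39 to 1.5 with a median of 0.99, and it was above that of the whole chromosome in all 17. For 13HH3 the spans ran from -0.22 to 0.60, with the interval above 0 in 11 and below 0 in 2, and 14 were above their chromosome. For 7G8 they ran from -0.15 to 0.59, with 12 above 0, 2 below 0 and 15 above the chromosome. Over all 51 clusters, H3K9ac was above that of the chromosome in 49, and not in those from Zfp248 to Zfp9 (-0.41, against -0.23) and from Zfp879 to Zfp2 (-0.03, against 0.24). Its interval lay above 0 in 49 and below 0 in 1. Each span includes the starts of its own members, so its value is not separate from theirs. The part of gene density in these values was not tested.

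The counts of called members in single clusters stand beside the shares of all genes given above for the TSS, 64.4% for H3K9ac, 33.9% for 13HH3 and 34.3% for 7G8. The median H3K9ac of the members at the record starts ran from 1.15 to 2.44 between these 17 clusters. The order of the clusters at RefSeq starts was not examined. The lowest was the cluster on chromosome 7 from Zfp180 to Zfp575, with 12 members of which 10 were called, from 0.45 at Zfp108 to 2.65 at Zfp428. Its uncalled members, Zfp108 and Zfp111, were called at their RefSeq starts, with 1.04 and 1.66. The highest was on chromosome 17 from Zfp947 to Zfp946, with all 4 members called, a median 13HH3 of 1.05 and a median 7G8 of 1.27. Yet the whole span of this cluster had the lowest H3K9ac of the 17, a log2 of 0.39, on a chromosome that as a whole had a low value of -0.29.

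The largest cluster lies on chromosome 13 (chr13:67139530-67927937) from Zfp712 to Zfp273 and holds 19 members. Its median was 1.67 for H3K9ac, 0.40 for 13HH3 and 0.69 for 7G8, and 17, 7 and 11 members were called. Within it H3K9ac ran from 0.08 at the shorter record of Zfp738 to 2.90 at Zfp953, which had 176, 60, 84 and 18 tags at a start with a CpG ratio of 0.37. At the RefSeq start of Zfp738 the value was 2.17. The cluster on chromosome 7 from Zfp84 to Zfp146 (chr7:30553571-30954746) holds 14 members, among them Zfp27 and Zfp568. Its medians were 2.33, 0.58 and 1.23, and 13, 7 and 10 members were called, with the lowest H3K9ac, 0.42, at Zfp14. At its RefSeq start Zfp14 had 0.79. The cluster on chromosome 17 from Zfp677 to Zfp943 (chr17:21520712-22208135) holds 11 members, all called for H3K9ac, from 1.14 at Zfp677 to 2.74 at Zfp942. Of these 3 were called for 13HH3 and 6 for 7G8. Zfp942 and Zfp943 start back to back and share most of their tags, 205 and 208 for H3K9ac, so they are not separate observations. The same holds for Zfp944 and Zfp758, with 135 and 134 tags.

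**Figure D5:**
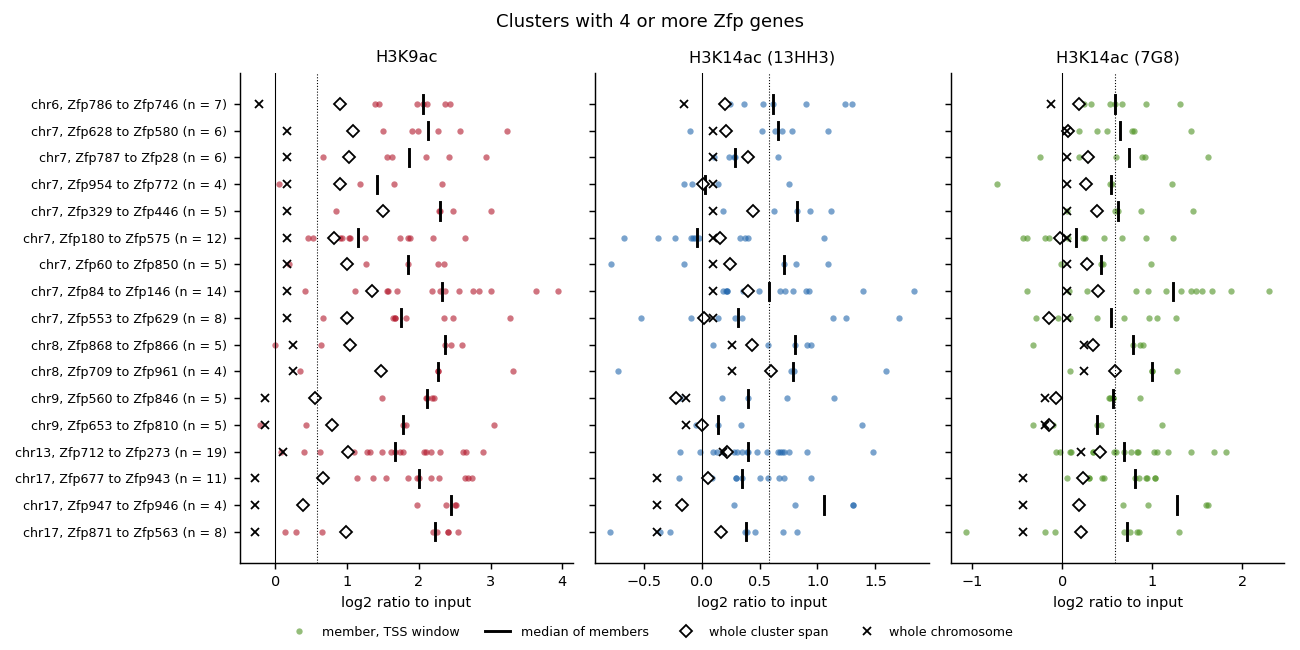
Log2 over input at the TSS of the members of each cluster with 4 or more members, for H3K9ac, 13HH3 and 7G8, with 1 point per member, a bar at the median of the cluster, a diamond at the value of the whole span and a cross at that of the whole chromosome. H3K9ac medians lie between 1.15 and 2.44 and spans between 0.39 and 1.5, while the members of the cluster from Zfp84 to Zfp146 spread from 0.42 to 3.94. All member values are those of the record starts.

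At the gene end the H3K9ac medians of the 17 clusters with 4 or more members ran from -0.01 to 1.83. The cluster on chromosome 7 from Zfp628 to Zfp580, with 6 members, had the highest of them and a median of 0.75 for 13HH3. Among its members are Zfp580 and Zfp524, whose gene-end windows overlap their TSS windows. The next highest H3K9ac median of the 17 was 1.10, from Zfp553 to Zfp629. On chromosome 6, the 7 members from Zfp786 to Zfp746 had 1.03, 0.34 and 0.53 for H3K9ac, 13HH3 and 7G8, and Zfp777 in this cluster had the highest H3K9ac of all members at the gene end (171 against 32 input tags, log2 2.09). Among these 17 clusters the lowest median for H3K9ac was again that of the cluster from Zfp180 to Zfp575. For 13HH3 the medians of the same 17 clusters ran from -0.85 to 0.75 and for 7G8 from -0.79 to 0.65.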

How the data were processed

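The authors sequenced ChIP and input DNA of mES cells as single-end reads of 36 bases, aligned them to mm9 with ELAND (1 mismatch allowed) and called peaks with MACS; versions are not given in the sources used here. They deposited the positions of mapped reads, before peak calling, 1 per line with chromosome, start, end, strand and a score. The deposited score is 1 on every line, so each line was counted as 1 tag. The H3K9ac, 7G8 and input files hold each position and strand once, and the 13HH3 file holds repeats. Nothing in the methods describes a removal of repeated tags.

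Repeats of a position and strand were removed from 13HH3. Each 5′ end was moved 100 bp along its strand. Tags on chromosomes 1 to 19, X and Y set the library size: 23181544 (H3K9ac), 21626227 (13HH3), 23837354 (7G8) and 19313142 (input). The genome and GENCODE vM1 annotation were of the same build as the tags. The TSS was the 5′ end of the gene record. Log2 ratios used a pseudocount of 1 tag per 10000000. Intervals are exact (Clopper-Pearson, 95%) and rest on the tags without a pseudocount. PCR reads are not independent molecules. With 1 library per antibody no test was run and no p-value is given.

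Named genes were the 8 highest and 8 lowest in H3K9ac at the TSS and the 6 highest in each H3K14ac antibody at the gene end, the 6 highest in 13HH3 to H3K9ac at the TSS (all with 10 or more input tags), the highest and lowest of each cluster of 4 or more, and members of known role; of these, some are given only in counts. Zfp777, Zfp619, Zfp943, Zfp758, Zfp334, Zfp9, Zfp454 and Zfp879 were named after their values were seen. The members and lists were chosen with earlier results of these data known. The counting was tested on simulated tags. Python 3.11.15, numpy 2.4.6, scipy 1.17.1, pandas 2.3.3, numba 0.67.0 and matplotlib 3.10.9 were used. H3K9 methylation and expression were not analysed here.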

Additional observations from a re-analysis of the deposited data

How the results depend on the processing

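No value that was checked changed direction, but the order of members and all genes did for 13HH3 at the TSS. Members were called more often in the main setting (35.0%, beside 33.9%) and with RefSeq starts (40.9%, beside 34.5%). The same held with scaling by chromosome (43.8%, beside 38.4%). They were called less often with a 2-fold threshold (11.8%, beside 14.7%) and a pseudocount of 5 (26.6%, beside 27.9%). Counts of calls moved by over 1.5 times, and medians beyond the binomial interval of the median over genes, in the following. The order is H3K9ac, 13HH3, 7G8 throughout. With a 2-fold threshold 24 members were called for 13HH3 and 42 for 7G8 at the TSS (beside 14.7% and 15.1% of all genes), and 47 (23.2%), 4 (1.97%) and 2 (0.985%) at the gene end, beside 16.8%, 5.31% and 3.82% of all genes. With a pseudocount of 5, 13 (13HH3) and 9 (7G8) members were called at the gene end (beside 8.94% and 5.94% of all genes), and with 10 or more input tags 13 of 174 for 7G8 (beside 8.92%). Members below input at the gene end, counted apart, went from 11, 52 and 50 to 6, 22 and 18 with a 2-fold threshold. Of all genes 7.97%, 7.41% and 11.1% were then below. With a pseudocount of 5 they were 7, 29 and 22, beside 10.2%, 10.8% and 16.5%. With scaling by chromosome H3K9ac had 7, beside 10.1%. Member medians at the TSS were 1.62 (H3K9ac) and 0.47 (7G8) with a pseudocount of 5, 2.21, 0.56 and 0.81 with windows of 1 kb, 2.19 (H3K9ac) with scaling by 10 kb bins, and 2.20 and 0.50 (13HH3) with such scaling by chromosome. At the gene end the H3K9ac median was 0.22 with windows of 1 kb, 0.77 with bins and 0.76 by chromosome. The median bin had a log2 over input of -0.35, -0.07 and 0.05, so the bins shift all genes, and the median of all genes at the TSS went from 1.23 to 1.57 for H3K9ac.

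The ratio of 13HH3 to H3K9ac at the TSS had a median of -1.26 (pseudocount 5), -1.63 (1 kb), -1.68 (bins), -1.69 (by chromosome) and -1.48 (RefSeq starts). That of 7G8 to H3K9ac was -1.17, -1.42, -1.68 and -1.65 for the first 4 of these. At the gene end the ratio of 13HH3 was -0.44 (pseudocount 5), -0.78 (window ending at the stop codon), -0.91 (bins) and -0.92 (by chromosome), and that of 7G8 was -0.41, -0.79, -0.98 and -0.95, and -0.47 with 1 kb. The unclustered Zfp genes had TSS medians of 1.84 (pseudocount 5), 2.41 (bins) and 2.36 (by chromosome) for H3K9ac, 2.27, 0.80 and 0.81 with 1 kb, and gene-end H3K9ac medians of 0.72 (bins) and 0.70 (by chromosome).

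Scaling by chromosome, RefSeq starts and 1 record per symbol (197 members) were chosen after seeing the data. Keeping repeated tags, not moving tags, a pseudocount of 0.5, the start of the longest coding transcript, leaving out windows with fewer than 80% unique starts, distances of 100 kb (180 members) or 500 kb (223 members), genes of 4 kb or more, and 1 record per symbol moved none of these counts of calls and medians. No paired analysis was possible because each group has 1 library, which also means that none was left out. Depth limits the gene end most, where the median member had 17 input tags.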
